A study of Mus musculus with 13 samples.

Results

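D-galactosamine with lipopolysaccharide (GalN/LPS) is a model of acute liver failure, and livers of mice given both were compared with livers of saline mice across all genes of the deposited count table. The comparison used 6 of the series' 13 RNA sequencing libraries, 3 GalN/LPS and 3 saline. All were livers of wild-type C57 BL6 mice aged 8 weeks, taken 6 h after injection. The injured group received 500 mg/kg D-galactosamine and 5 µg/kg lipopolysaccharide intraperitoneally, and the control group received saline. No group analysed here received either agent alone, so their separate effects cannot be told apart here. The labels do not say that each library came from its own animal, so the tests see only how far these samples spread, which may be technical. Of 54532 genes in the table, 14280 had enough counts to be tested. The other libraries of the series came from mice given dmPGE2, a prostaglandin, alone or before GalN/LPS. They were in the same fit and so share in its scaling, filter and estimate of spread. The filter keeps a gene that is high in any group of the 13 libraries. A gene absent from saline livers thus entered only through its level in other groups. With the 6 saline and GalN/LPS libraries alone, 13766 genes were tested. The tissue label was checked with 8 hepatocyte markers, which summed to 88764 to 101507 CPM (counts scaled to a common library size) in saline and 94482 to 134354 CPM in injured livers.

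Galactosamine is taken up mainly by hepatocytes, where its conversion to a uridine-linked sugar ties up uridine nucleotides and limits RNA synthesis. Lipopolysaccharide is sensed by the receptor complex of CD14, MD-2 and TLR4 on macrophages and endothelium, which activates NF-kB and MAP kinases and releases tumor necrosis factor (TNF). Hepatocytes normally withstand TNF by making short-lived survival proteins, and under galactosamine they are known to die by caspase-8-dependent apoptosis.

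GalN/LPS livers differed from saline livers in 52.9% of the genes tested. By the quasi-likelihood test of edgeR, with p-values adjusted by the Benjamini-Hochberg method, at 0.05, 3906 genes were higher (27.4% of those tested) and 3650 lower (25.6%). At least 2-fold changes were 2674 and 1853 of these. The increases were larger. Among genes called higher, the median change was 1.66 on the log2 scale and 1629 changed at least 4-fold, against 1.01 and 419 among genes called lower. The genes called higher together took 135342 CPM in saline and 267798 CPM in injured livers, while those called lower took 139594 and 69703 CPM. All levels here are CPM scaled by edgeR's TMM factors. A log2 change is GalN/LPS over saline with its standard error after the ±, a level has its SD there (n = 3 a group), and adjusted p-values come from the edgeR test above.

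**Figure D1:**
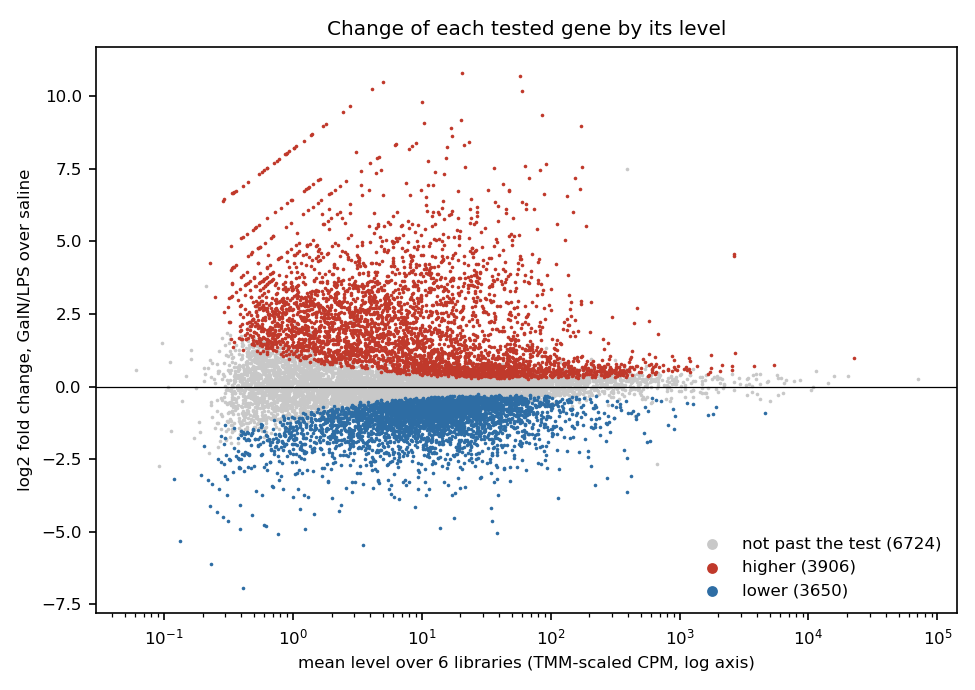
Each point is 1 of the 14280 genes tested, with its mean level over the 6 libraries in CPM on a log axis and its log2 fold change (GalN/LPS over saline) on the vertical axis. Red points passed the test as higher (3906) and blue points as lower (3650), and the cloud reaches farther above 0 than below it.

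Total counts ranged from 17018104 to 18425824 in saline and from 16575171 to 17709049 in GalN/LPS libraries. With library totals in place of TMM factors the median log2 fold change of all genes moved from 0.02 by -0.17, and the calls were 3067 higher and 4277 lower. TMM factors were 1.17 to 1.18 in saline, 1.14 and 1.1 in GalN/LPS 1 and 3, and 0.904 in GalN/LPS 2, which had the highest summed hepatocyte markers. The ribosomal RNAs of the mitochondrion, a sign of library composition, were 165, 319.5 and 171 CPM in saline livers and 4721, 5129 and 5503 CPM after GalN/LPS for mt-Rnr2, and their part in the results below was not tested. Reads of genes with near-identical copies are uncertain, as are those of overlapping and antisense genes, since the sources used here do not name the read counter or its strand setting. Of 258 genes named below 53 overlap another tested gene, and in 14 the other gene has more counts (Adam17, Bid, Bmp6, Cnot7, G6pdx, Galt, Irak3, Mcm7, Myd88, Naprt, Polr2b, Psmb9, Tirap and mt-Co3), so their values are uncertain.

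Promoters of 4 inflammatory genes that rose are shown because they hold the letters of motifs that NF-kB and interferon-activated factors are known to bind. Each sequence is the 250 bases before the RefSeq start, from build GRCm38.p6, read 5′ to 3′ on the gene's strand. Capitals in Cxcl2 (chr5:90903649-90903898, plus strand) and Nfkbia (chr12:55492648-55492897, minus strand) mark the NF-kB motif (GGG, any 2 bases, then TTTCC) on either strand, and those in Cxcl10 (chr5:92348890-92349139, minus strand) and Socs1 (chr16:10785537-10785786, minus strand) mark the interferon response motif (TTTC, any 2 bases, then TTTC) on either strand, which occurs as a pair of overlapping matches in Socs1. Of 27025 mouse promoters of this length in the RefSeq table, 378 (1.4%) hold the first motif and 821 (3.04%) the second. A match is a description of letters, not of binding. Only 74.5% of the tested genes had a promoter in the table, so shares of motifs over the called genes were not compared.
Cxcl2: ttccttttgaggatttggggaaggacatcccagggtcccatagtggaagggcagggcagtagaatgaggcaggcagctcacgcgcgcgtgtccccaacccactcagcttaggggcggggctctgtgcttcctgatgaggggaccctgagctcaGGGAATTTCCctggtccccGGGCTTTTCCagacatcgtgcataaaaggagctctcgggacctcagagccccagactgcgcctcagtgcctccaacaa
Nfkbia: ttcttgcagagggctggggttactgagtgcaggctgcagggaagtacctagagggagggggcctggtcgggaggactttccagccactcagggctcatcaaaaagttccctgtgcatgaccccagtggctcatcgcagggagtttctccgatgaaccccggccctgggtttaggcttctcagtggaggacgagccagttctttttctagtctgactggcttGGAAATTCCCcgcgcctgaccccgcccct
Cxcl10: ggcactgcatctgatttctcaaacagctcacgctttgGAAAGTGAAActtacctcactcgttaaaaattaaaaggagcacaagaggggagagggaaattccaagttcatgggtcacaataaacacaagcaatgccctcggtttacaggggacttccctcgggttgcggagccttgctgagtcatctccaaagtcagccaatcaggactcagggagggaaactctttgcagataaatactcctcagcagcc
Socs1: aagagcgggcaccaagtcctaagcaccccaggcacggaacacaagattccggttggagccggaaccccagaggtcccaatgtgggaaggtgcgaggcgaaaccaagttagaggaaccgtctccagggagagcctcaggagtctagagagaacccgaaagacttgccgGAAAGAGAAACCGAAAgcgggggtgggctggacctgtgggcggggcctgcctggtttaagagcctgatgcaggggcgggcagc

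Cxcl2, a chemokine that draws neutrophils, was counted at 0, 0 and 0.288 CPM in saline livers and 127, 97.3 and 136 CPM after GalN/LPS. Its 6 saline counts all lay in saline 3, so the size of the change is uncertain, and the groups do not overlap. Nfkbia, which encodes the inhibitor that holds NF-kB in the cytoplasm, was 26.3, 24.9 and 20.2 CPM in saline livers and 153, 143 and 167 CPM after GalN/LPS, a log2 fold change of 2.70 ± 0.14. Cxcl10, a chemokine for T cells, was 1.74, 2.74 and 1.10 CPM in saline livers and 413, 289 and 347 CPM after GalN/LPS. Socs1, a brake on interferon signalling, was 0.780, 0.299 and 0.336 CPM in saline livers and 12.3, 14.3 and 19.2 CPM after GalN/LPS (log2 change 4.98 ± 0.55, adjusted p = 1.56e-06). In each of the 4, the lowest GalN/LPS library lay above the highest saline library, as it did for 30.3% of all genes tested, while for 29.5% every GalN/LPS library lay below every saline library (59.7% either way).

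Genes of the pathway that handles galactosamine moved in both directions. Of 15 genes of uridine sugar and galactose metabolism, 3 rose, 3 fell and 9 did not pass the test, against 27.4% higher and 25.6% lower of all genes tested. The median log2 fold change of the list was -0.10 against 0.02 over all genes. Galk1, the kinase of the galactose pathway, was 56.0, 45.2 and 42.6 CPM in saline livers and 35.9, 44.1 and 39.9 CPM after GalN/LPS (log2 change -0.26 ± 0.16, adjusted p = 0.182), and Galt, which attaches the sugar to uridine diphosphate, had a log2 change of -0.05 ± 0.20 (adjusted p = 0.851). The groups overlap in both genes. Ugdh, which makes the glucuronic acid donor from UDP-glucose, fell (log2 change -1.36 ± 0.25, adjusted p = 2.20e-04), as did Gne, the first enzyme of sialic acid synthesis (185 ± 21.7 to 40.9 ± 4.53 CPM, log2 change -2.18 ± 0.17, adjusted p = 3.29e-08). The list held 2 higher and 6 lower with library totals, 2 and 3 without saline 1, 1 and 3 without saline 2, 1 and 4 without GalN/LPS 2, and 2 and 4 without GalN/LPS 3. Galk1 passed with library totals (adjusted p = 0.0470).

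Among pyrimidine supply genes 4 rose and 5 fell of 19 (median 0.11), near the 27.4% higher and 25.6% lower of all genes tested. Umps, which completes uridine monophosphate, was 31.0, 29.3 and 31.4 CPM in saline livers and 11.0, 8.19 and 10.7 CPM after GalN/LPS (log2 change -1.61 ± 0.16, adjusted p = 4.39e-07). The uridine kinase Uck1 fell too (-0.86 ± 0.15). Upp1, a uridine phosphorylase that breaks uridine down, was 1.15, 0.947 and 1.01 CPM in saline livers and 41.0, 25.3 and 48.3 CPM after GalN/LPS (log2 change 5.20 ± 0.28, adjusted p = 8.18e-10), while its liver paralog Upp2 fell (373 ± 132 to 185 ± 39.1 CPM, log2 change -1.01 ± 0.27, adjusted p = 0.00443). Cda, which deaminates cytidine, fell by 3.35 ± 0.35 on the log2 scale. Cad, the first enzyme of pyrimidine synthesis, was 8.86 ± 2.08 CPM in saline livers and 9.27 ± 0.966 CPM after GalN/LPS with overlapping groups (log2 change 0.06 ± 0.34, adjusted p = 0.889).

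**Figure D2:**
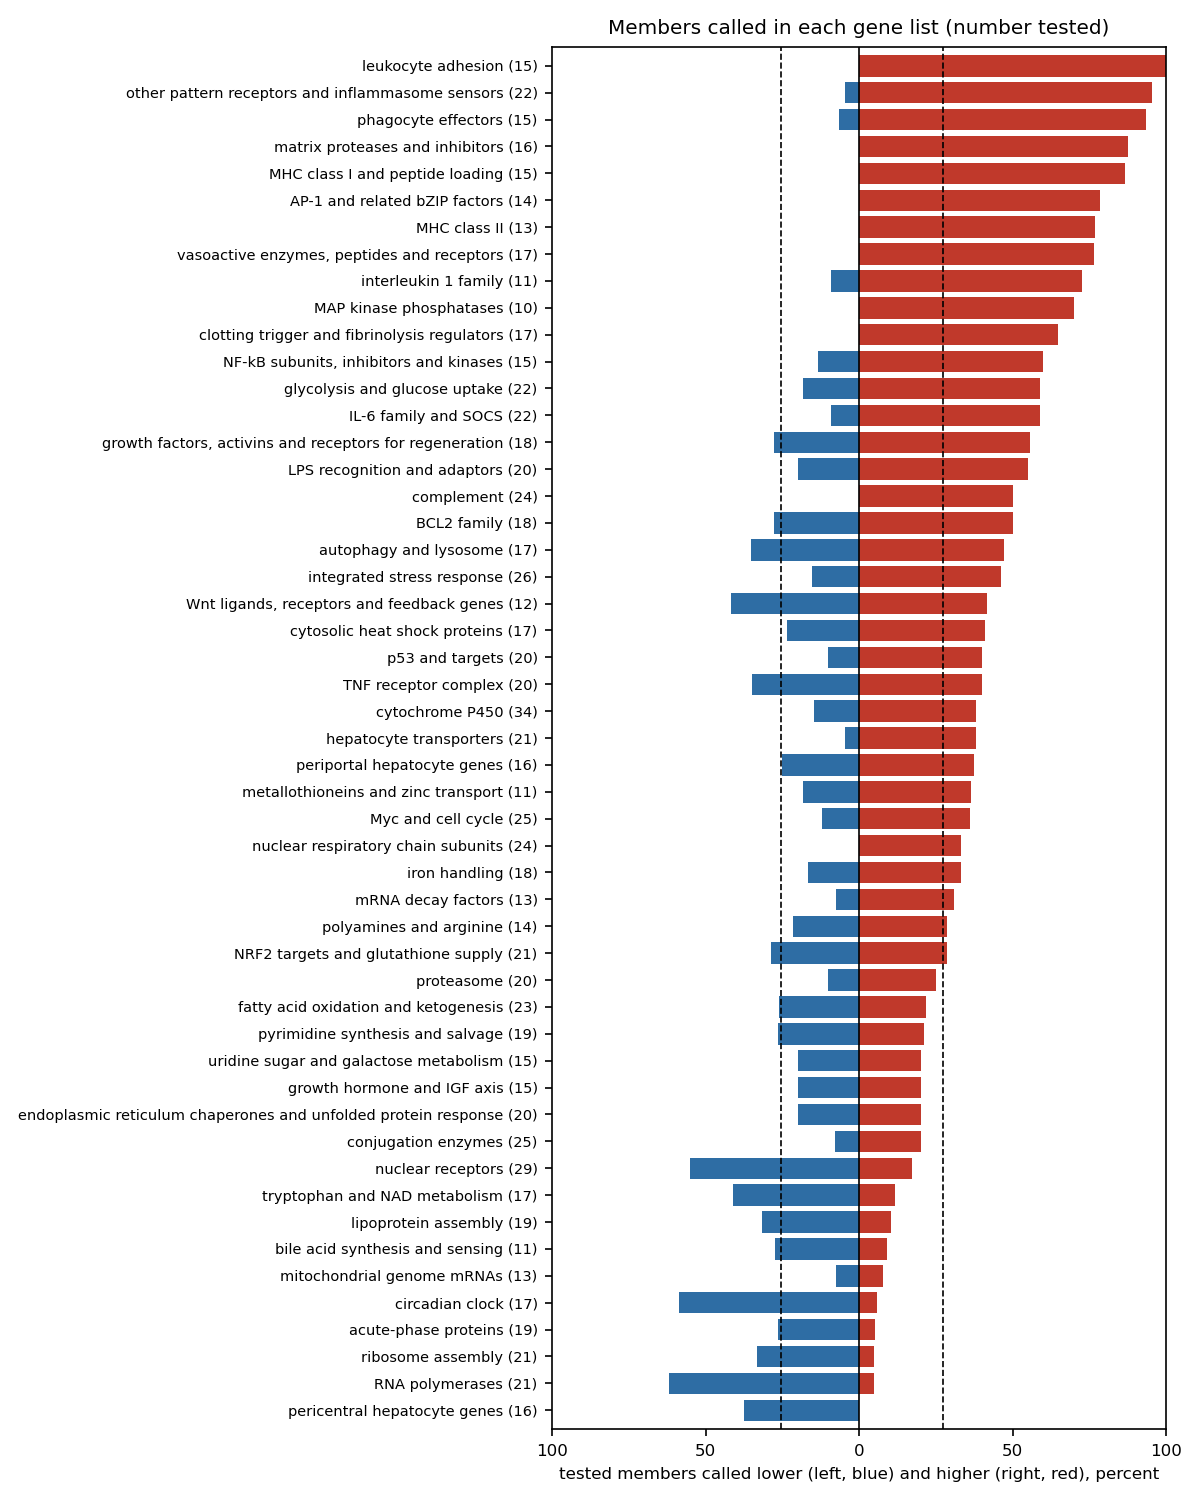
Bars give the percent of tested members of 51 gene lists that were higher (red, to the right) or lower (blue, to the left) in GalN/LPS than in saline livers, and dashed lines mark the 27.4% and 25.6% of all genes tested. Lists of adhesion, matrix protease, phagocyte and pattern receptor genes lie near the right edge with few or no lower members, and the lists of RNA polymerases, circadian clock and nuclear receptors reach farthest to the left.

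The receptor complex for lipopolysaccharide rose at its receptor end. Cd14 was 1.61, 1.49 and 1.78 CPM in saline livers and 149, 94.0 and 142 CPM after GalN/LPS (log2 change 6.30 ± 0.26, adjusted p = 7.95e-11). Tlr4 was 0.413, 0.149 and 0.528 CPM in saline livers and 13.1, 5.93 and 10.5 CPM after GalN/LPS (log2 change 4.73 ± 0.41, adjusted p = 1.28e-07), and its partner MD-2, encoded by Ly96, rose by 0.93 ± 0.28. None of the 3 overlaps between groups, and GalN/LPS 1, 2 and 3 were all above every saline liver, as in 30.3% of all genes tested. Downstream the adaptors split. Myd88 rose (12.5 ± 1.14 to 41.5 ± 5.15 CPM), while Tirap (-1.48 ± 0.19), its bridging adaptor, and Ticam1 (-1.25 ± 0.29), the adaptor of the interferon branch, fell. Irak3, a kinase-dead brake on this pathway, rose by 4.23 ± 0.24, and Lbp, the liver-made binding protein, was 90.4 ± 18.9 CPM in saline livers and 123 ± 40.3 CPM after GalN/LPS with overlapping groups (log2 change 0.44 ± 0.29, adjusted p = 0.212). Myd88, Tirap and Irak3 each overlap a gene with more counts, so the split of the adaptors is uncertain. In all, 11 of 20 members were higher and 4 lower (median 0.54). Ly96 did not pass without GalN/LPS 1 (adjusted p = 0.0540).

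Other pattern receptors and inflammasome sensors rose in 21 of 22 tested cases, with 1 further member untested (Nlrp1b, too few counts) and a median of 2.58. Tlr2, the receptor for bacterial lipoproteins, rose from 1.71 ± 0.360 to 47.3 ± 12 CPM (log2 change 4.79 ± 0.25, adjusted p = 6.65e-10). Clec4e, a lectin receptor for products of dead cells and mycobacteria, was 0, 0.249 and 0 CPM in saline livers and 42.0, 25.2 and 34.9 CPM after GalN/LPS. Zbp1, a sensor of nucleic acids in the Z form, rose from 10.7 ± 2.88 to 79.6 ± 13.1 CPM. Tlr9, the receptor for bacterial DNA, had no counts in saline and was at least 37.4-fold higher in GalN/LPS livers, taking 3 counts for the whole saline group as the floor. Clec4e and Tlr9 were tested only through their level in other groups, so their rise adds little to the count of members. The exception was Tlr5, the flagellin receptor, which fell from 4.01 ± 1.27 to 1.07 ± 0.0452 CPM (log2 change -1.90 ± 0.33, adjusted p = 1.64e-04). Leukocytes and endothelium carry most of these receptors, and markers of those cells rose too (values below), so more such cells and more RNA per cell cannot be told apart in whole-liver RNA.

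The complex that forms on the TNF receptor did not move one way (8 higher, 7 lower, 5 not past the test, median 0.15). Of all genes tested 27.4% were higher and 25.6% lower. The death-signalling receptor Tnfrsf1a was 95, 68.7 and 92.2 CPM in saline livers and 116, 87.5 and 99.2 CPM after GalN/LPS (log2 change 0.24 ± 0.18, adjusted p = 0.268), and its groups overlap, as do those of the kinase Ripk1 (log2 change -0.04 ± 0.19, adjusted p = 0.862). The second TNF receptor, Tnfrsf1b, rose from 23.4 ± 2.21 to 78.4 ± 15.9 CPM (log2 change 1.75 ± 0.18, adjusted p = 8.94e-07). Adaptors that recruit the death machinery fell. Fadd was 9.72, 10.2 and 8.17 CPM in saline livers and 3.03, 2.08 and 3.23 CPM after GalN/LPS (log2 change -1.74 ± 0.20, adjusted p = 2.52e-06), and Tradd fell by 1.20 ± 0.17 on the log2 scale. The inhibitor of caspase-8, Cflar, was 67.6 ± 5.48 CPM in saline livers and 82.3 ± 14.5 CPM after GalN/LPS with overlapping groups (log2 change 0.28 ± 0.15, adjusted p = 0.114). The ubiquitin ligase Birc3 (9.08 ± 0.519 to 53.7 ± 6.46 CPM) and the A20-binding partner Tnip1 (6.67 ± 0.472 to 76.7 ± 15.5 CPM), which restrain death signalling and NF-kB, rose by 2.56 ± 0.15 and 3.52 ± 0.20, while the linear-ubiquitin genes Sharpin (-1.0 ± 0.14) and Otulin (-1.48 ± 0.17) fell. Cflar passed without GalN/LPS 2 (adjusted p = 0.0367).

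Most NF-kB subunits rose, but not Rela. Relb was 1.51, 1.35 and 1.15 CPM in saline livers and 27.6, 22.9 and 31.1 CPM after GalN/LPS (log2 change 4.34 ± 0.19, adjusted p = 1.33e-10), and Nfkb2, its partner, was 5.87, 4.63 and 5.81 CPM in saline livers and 46.8, 37.0 and 50.3 CPM after GalN/LPS (log2 change 3.04 ± 0.17, adjusted p = 1.04e-09). Rela, the main transactivating subunit, was 37.2, 38.8 and 39.0 CPM in saline livers and 43.8, 37.8 and 49.1 CPM after GalN/LPS (log2 change 0.19 ± 0.14, adjusted p = 0.272), with overlapping groups. Of the upstream kinase complex the scaffold Ikbkg fell (-0.59 ± 0.17), and the kinase Ikbkb had a log2 change of -0.11 ± 0.11 (adjusted p = 0.439). Of 15 members 9 rose and 2 fell (median 1.56, but 9 higher and 1 lower without saline 2, and 8 and 3 without GalN/LPS 3). Nfkbiz, an atypical inhibitor that helps switch on secondary response genes, rose from 4.85 ± 1.17 to 47.2 ± 9.60 CPM.

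Among genes that restrain inflammatory signals most MAP kinase phosphatases rose, while most mRNA decay factors did not pass the test. Dusp1, which dephosphorylates p38 and JNK, was 8.16, 22.6 and 9.66 CPM in saline livers and 163, 133 and 171 CPM after GalN/LPS (log2 change 3.53 ± 0.33, adjusted p = 2.91e-07). Dusp2, an inducible phosphatase of immune cells, was 0.321, 0.199 and 0.288 CPM in saline livers and 23.2, 18.2 and 22.1 CPM after GalN/LPS (log2 change 6.25 ± 0.37, adjusted p = 1.95e-09). Neither overlaps between groups, and 7 of 10 MAP kinase phosphatases rose with none lower (median 2.39, but 6 higher and 1 lower with library totals). Dusp16 had a log2 change of 0.00 ± 0.20 (adjusted p = 0.992). Zfp36, which marks TNF mRNA for decay, was 29.4, 43.6 and 61.6 CPM in saline livers and 231, 233 and 258 CPM after GalN/LPS (log2 change 2.43 ± 0.34, adjusted p = 2.14e-05), and the endonuclease Zc3h12a rose from 3.51 ± 0.423 to 20.03 ± 3.09 CPM. Of 13 decay factors 4 rose and 1 fell (median 0.14, but 4 higher and 0 lower without GalN/LPS 1), near the 27.4% of all genes that were higher, and the others, such as Cnot7 (-0.12 ± 0.17) and Xrn1 (-0.27 ± 0.23), did not pass the test. Il1rn, the antagonist of the interleukin 1 receptor, was 2.52, 1.25 and 2.64 CPM in saline livers and 196, 82.1 and 164 CPM after GalN/LPS (log2 change 6.10 ± 0.44, adjusted p = 1.45e-08), and Il10, an anti-inflammatory cytokine, was 0.0459, 0 and 0.144 CPM in saline livers and 9.08, 6.30 and 7.94 CPM after GalN/LPS. Il1r2, a decoy receptor that neutrophils carry, was 0, 0.0498 and 0.144 CPM in saline livers and 35.5, 25.6 and 39.8 CPM after GalN/LPS, and 8 of 11 tested interleukin 1 family genes rose. Every GalN/LPS liver exceeded every saline liver in each of Il1rn, Il10 and Il1r2, as in 30.3% of all genes tested. Il10 and Il1r2 were near 0 in saline and were tested only through their level in other groups, so their separation adds little. The signalling receptor Il1r1 was 28.4 ± 3.26 CPM in saline livers and 28.2 ± 3.71 CPM after GalN/LPS with overlapping groups (log2 change -0.01 ± 0.17, adjusted p = 0.966).

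The interleukin 6 family rose at its ligands, shared receptor and feedback inhibitors (13 higher, 2 lower of 22, median 1.45). Il6st, the shared receptor chain, was 101, 63.6 and 95.6 CPM in saline livers and 382, 279 and 289 CPM after GalN/LPS (log2 change 1.87 ± 0.26, adjusted p = 1.61e-05). Osmr, the oncostatin M receptor, was 1.10, 1.25 and 1.97 CPM in saline livers and 32, 14.8 and 18.2 CPM after GalN/LPS (log2 change 3.91 ± 0.39, adjusted p = 5.36e-07), and its ligand Osm, with 2 counts in saline and 515 in GalN/LPS livers, stood at a ratio of 298 (95% interval for counting error 82 to 2460). Il6ra, the chain specific to interleukin 6, was 44.5 ± 4.06 CPM in saline livers and 34.3 ± 3.23 CPM after GalN/LPS (log2 change -0.38 ± 0.16, adjusted p = 0.0525). Socs3, the feedback inhibitor of this family, was 19.0, 3.09 and 25.7 CPM in saline livers and 126, 160.2 and 194 CPM after GalN/LPS (log2 change 3.33 ± 0.59, adjusted p = 1.99e-04), while the signal transducer Stat3 was 143, 69.5 and 125 CPM in saline livers and 88.2, 64.0 and 85.1 CPM after GalN/LPS (log2 change -0.51 ± 0.22, adjusted p = 0.0615). Stat3 overlaps between groups and Socs3 does not. Jak2 rose from 9.05 ± 0.986 to 44.5 ± 12.8 CPM. The family had 13 higher and 4 lower with library totals, 13 and 1 without saline 1, GalN/LPS 1 or GalN/LPS 2, 13 and 5 without saline 2, and 14 and 4 without GalN/LPS 3. Il6ra passed with library totals, without saline 2 or GalN/LPS 3 (adjusted p = 0.0281, 0.0391 and 0.0177), and Stat3 passed with library totals, without saline 2 or GalN/LPS 3 (adjusted p = 0.0394, 0.00242 and 0.0403).

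Immediate early transcription factors of the AP-1 family were 11 of 14 higher, with no member lower and a median of 3.25. Fos was 0.504, 0.0498 and 3.79 CPM in saline livers and 72.7, 74.1 and 82.4 CPM after GalN/LPS (log2 change 5.71 ± 0.80, adjusted p = 2.06e-05). Atf3, a stress-induced repressor, was 0.596, 0.797 and 1.06 CPM in saline livers and 27.4, 53 and 78.4 CPM after GalN/LPS (log2 change 6.01 ± 0.65, adjusted p = 1.25e-06). Jun rose from 9.64 ± 0.290 to 131 ± 45.1 CPM and Junb from 28.4 ± 17.4 to 252 ± 76.3 CPM, while Jund, the member expressed in resting cells, was 25.5 ± 3.82 CPM in saline livers and 23 ± 8.77 CPM after GalN/LPS with overlapping groups (log2 change -0.15 ± 0.27, adjusted p = 0.675). Of the GalN/LPS livers 1 was lowest and 3 highest for Atf3, and neither Fos nor Atf3 overlaps between groups. Every GalN/LPS liver exceeded every saline liver in 30.3% of all genes tested.

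**Figure D3:**
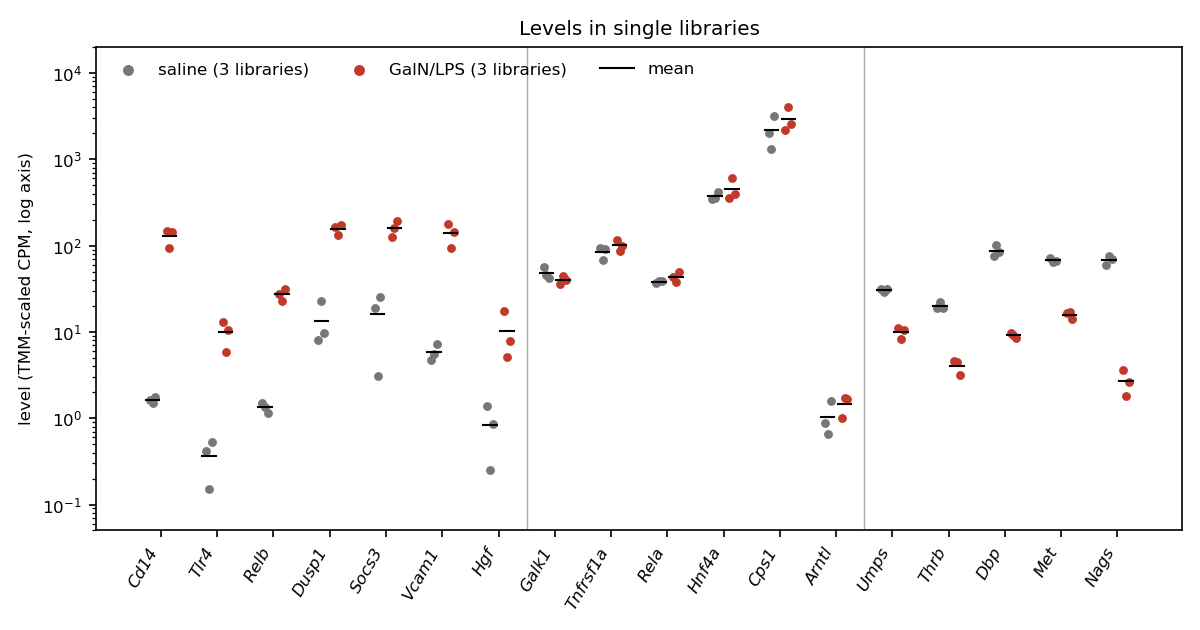
Points are TMM-scaled CPM of single libraries (3 saline in grey, 3 GalN/LPS in red) for 18 named genes on a log axis, with a black bar at each mean. Genes on the left lie higher in every GalN/LPS than in every saline library, genes in the middle such as Rela, Tnfrsf1a and Galk1 overlap, and those on the right lie lower in every GalN/LPS library.

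Genes by which endothelium recruits leukocytes, and their counterparts on leukocytes, rose in all 15 of 15 tested members (Madcam1 untested), with a median of 4.08. Vcam1, which holds leukocytes on the vessel wall, was 4.72, 5.53 and 7.21 CPM in saline livers and 176, 94.2 and 145 CPM after GalN/LPS (log2 change 4.57 ± 0.36, adjusted p = 3.51e-08). Selp, the P-selectin of platelets and endothelium, was 1.01, 1.30 and 0.817 CPM in saline livers and 45.0, 14.4 and 24.5 CPM after GalN/LPS (log2 change 4.74 ± 0.45, adjusted p = 3.11e-07). Sele, the inducible E-selectin, with 3 counts in saline and 874 in GalN/LPS livers, stood at a ratio of 337 (95% interval for counting error 115 to 1640). Sele was tested only through its level in other groups, so its rise adds little to the count of members. The constitutive endothelial genes Cdh5 (3.86 ± 0.34) and Pecam1 (3.29 ± 0.34) rose as well, as did the leukocyte integrin chains Itgb2 (3.24 ± 0.938 to 75.7 ± 23.4 CPM) and Itgam (0.494 ± 0.0712 to 13.6 ± 2.72 CPM). All 10 sinusoidal endothelial markers rose, and their summed level was 88.7 to 104 CPM in saline and 609 to 722 CPM in injured livers. The part of that rise in the adhesion genes was not tested.

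Among regulators of clotting and fibrinolysis 11 of 17 rose and none fell (median 1.97, Serpinb2 untested). Thbd, the thrombin receptor that starts the anticoagulant pathway, was 1.47, 1.10 and 1.30 CPM in saline livers and 46.1, 34.9 and 55.1 CPM after GalN/LPS (log2 change 5.13 ± 0.48, adjusted p = 2.69e-07), and Procr, the receptor for protein C, was 0.321, 0.149 and 0.192 CPM in saline livers and 41.6, 28.7 and 59.3 CPM after GalN/LPS (log2 change 7.55 ± 0.35, adjusted p = 1.78e-10). Both are separate between groups, and every GalN/LPS liver exceeded every saline liver in 30.3% of all genes tested. F3, the tissue factor that triggers clotting, was 5.50, 5.33 and 4.56 CPM in saline livers and 3.88, 3.40 and 4.66 CPM after GalN/LPS (log2 change -0.36 ± 0.30, adjusted p = 0.331), and its groups overlap. Proc (564 ± 20.9 CPM in saline livers and 553 ± 121 CPM after GalN/LPS) and Serpinf2 (788 ± 145 CPM in saline livers and 824 ± 129 CPM after GalN/LPS), which hepatocytes secrete, did not pass the test (log2 change -0.03 ± 0.16, adjusted p = 0.892, and log2 change 0.06 ± 0.17, adjusted p = 0.767).

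Vasoactive genes rose in 13 of 17 cases with none lower (median 2.08). The vasoconstrictor endothelin, Edn1, was 0.367, 0.0498 and 0.288 CPM in saline livers and 5.73, 4.92 and 4.66 CPM after GalN/LPS (log2 change 4.38 ± 0.53, adjusted p = 3.97e-06), and the dilator adrenomedullin, Adm, was 0.229, 0.548 and 1.34 CPM in saline livers and 21.0, 21.4 and 29.7 CPM after GalN/LPS (log2 change 5.08 ± 0.55, adjusted p = 1.43e-06). Hmox1, which breaks down heme and releases carbon monoxide, was 9.45, 12.6 and 14.7 CPM in saline livers and 168, 133 and 227 CPM after GalN/LPS (log2 change 3.84 ± 0.26, adjusted p = 9.07e-09). None of these overlaps between groups, and every GalN/LPS liver exceeded every saline liver in 30.3% of all genes tested. Adora2b, an adenosine receptor, had no counts in saline and was at least 51.6-fold higher in GalN/LPS livers, taking 3 counts for the whole saline group as the floor. Adora2b was tested only through its level in other groups.

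Proteases that cut the matrix, and their inhibitors, rose in 14 of 16 cases (median 4.13). Mmp13, a collagenase, was 0.0459, 0.0996 and 0.144 CPM in saline livers and 36.5, 16.7 and 40.1 CPM after GalN/LPS (log2 change 8.25 ± 0.44, adjusted p = 6.65e-10). Near 0 in saline, Mmp13 was tested only through its level in other groups. Timp1, the inducible inhibitor of metalloproteases, was 0.138, 0.0498 and 0.865 CPM in saline livers and 17.4, 11.3 and 18.5 CPM after GalN/LPS (log2 change 5.46 ± 0.65, adjusted p = 3.74e-06). Adam17, which sheds TNF from the cell surface, rose from 13.3 ± 0.515 to 25.3 ± 5.85 CPM, whereas the related sheddase Adam10 had a log2 change of -0.43 ± 0.21 (adjusted p = 0.0968).

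Phagocyte effectors rose in 14 of 15 tested cases (median 3.40). S100a8 and S100a9, which form calprotectin, rose from 2.79 ± 1.84 to 265 ± 39.5 CPM and from 2.99 ± 2.30 to 335 ± 45.7 CPM. Cybb, the catalytic chain of the phagocyte oxidase, was 5.96, 5.83 and 6.82 CPM in saline livers and 103, 53.1 and 115 CPM after GalN/LPS (log2 change 3.86 ± 0.28, adjusted p = 1.54e-08). Some granule genes known from immature neutrophils did not share the rise. Mpo, Elane and Camp were too low to be tested, and Prtn3, proteinase 3, fell from 13.9 ± 9.82 to 1.31 ± 0.483 CPM (log2 change -3.38 ± 0.66, adjusted p = 4.34e-04). In saline Prtn3 alone was on the scale of the summed neutrophil markers given next, while Mpo and Elane were near absent. The cells that carried it were not identified, so its fall is not read as a change in neutrophils. The 10 neutrophil markers all rose, with sums of 5.10 to 16.6 CPM in saline and 713 to 950.2 CPM in injured livers. Those near 0 in saline, such as Il1r2 above, were tested only through their level in other groups, so their rise adds little. Of 8 monocyte markers 7 rose. The exception, F10, also encodes a liver clotting factor (472 ± 35.4 CPM in saline livers and 488 ± 77.6 CPM after GalN/LPS). It makes up most of the summed level of the monocyte list in both groups.

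Resident cell markers rose with those of recruited cells. Of 10 Kupffer cell markers 9 rose, with Clec4f at 58.3, 50.4 and 58.9 CPM in saline livers and 178, 129.5 and 198 CPM after GalN/LPS (log2 change 1.59 ± 0.22, adjusted p = 1.92e-05) and Marco, a scavenger receptor, at 13.1, 3.79 and 6.24 CPM in saline livers and 197, 229.5 and 333 CPM after GalN/LPS (log2 change 5.03 ± 0.51, adjusted p = 6.99e-07). Vsig4 was 13.7 ± 2.19 CPM in saline livers and 16.5 ± 4.97 CPM after GalN/LPS (log2 change 0.27 ± 0.26, adjusted p = 0.402). Of 10 markers of stellate cells and fibroblasts 9 rose, with sums of 142 to 225 CPM in saline and 595 to 1079 CPM in injured livers, and Lrat had a log2 change of 1.03 ± 0.45 (adjusted p = 0.0686). Lrat passed without saline 3 or GalN/LPS 3 (adjusted p = 0.0267 and 0.0323). Of 9 tested markers of T and NK cells 7 rose, with sums of 4.30 to 5.40 CPM and 20.9 to 22.9 CPM. B and plasma cell markers rose in 5 of 8 cases, dendritic cell markers in 6 of 7 and cholangiocyte markers in 6 of 7, with 1 lower. All 8 tested erythroid and platelet markers rose, and their sums were 252 to 716 CPM and 1061 to 2007 CPM. Of the pancreas genes Prss2, Cpa1 and Pnlip no counts were found in either group.

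**Figure D4:**
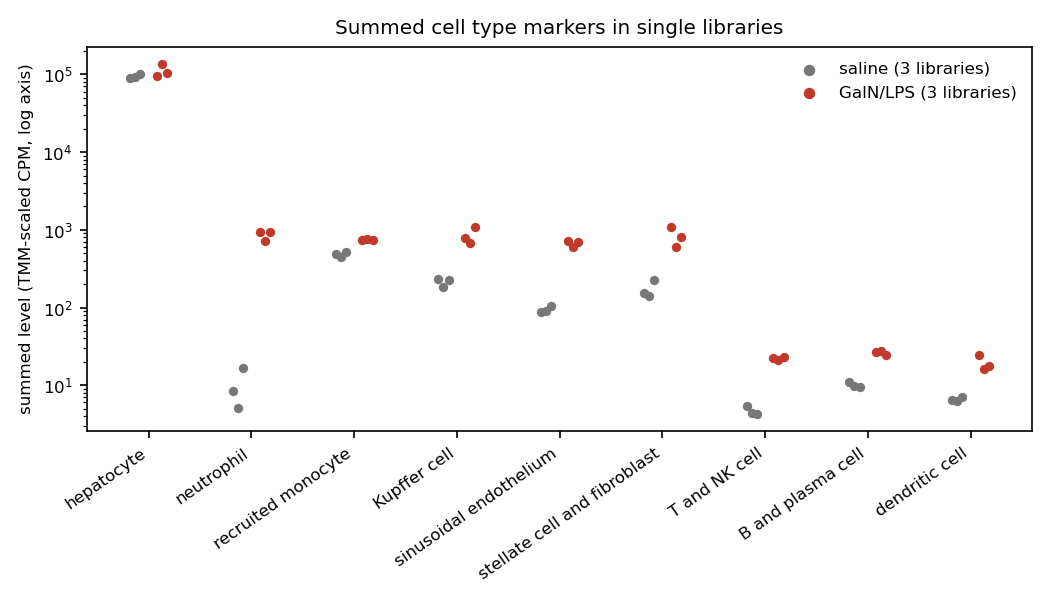
Summed TMM-scaled CPM of 9 marker lists in each of the 6 libraries, on a log axis, with saline libraries in grey and GalN/LPS libraries in red. Hepatocyte sums overlap between groups, while the sums of the other 8 lists lie higher in every GalN/LPS library. Most of the recruited monocyte sum is F10, which also encodes a liver clotting factor, so that sum does not give the level or fold of monocyte markers.

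Antigen presentation genes rose on both branches. For MHC class I and peptide loading 13 of 15 rose (median 1.02), including the transporter Tap1 (29.4 ± 8.34 to 109 ± 18.5 CPM) and the master regulator Nlrc5 (13.9 ± 3.82 to 47.0 ± 6.07 CPM). For MHC class II 10 of 13 tested members rose (median 1.62), with the invariant chain Cd74 at 59.1, 42.1 and 48.2 CPM in saline livers and 187, 159.7 and 249.5 CPM after GalN/LPS (log2 change 2.0 ± 0.27, adjusted p = 1.35e-05) and the costimulatory receptor Cd40 at 0.413, 0.249 and 0.288 CPM in saline livers and 27.0, 17.1 and 20.8 CPM after GalN/LPS (log2 change 6.05 ± 0.33, adjusted p = 8.71e-10). The 3 immunoproteasome subunits rose with them, Psmb8 by 1.24 ± 0.16, Psmb9 by 0.83 ± 0.19 and Psmb10 by 0.63 ± 0.13. Their constitutive counterparts Psmb5 and Psmb6 had a log2 change of -0.11 ± 0.13 (adjusted p = 0.503) and a log2 change of 0.08 ± 0.13 (adjusted p = 0.641), respectively.

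Complement genes rose in 12 of 24 cases with none lower (median 0.38), but 9 higher and 1 lower with library totals, 8 and 0 without saline 2 or saline 3, and 7 and 1 without GalN/LPS 2. The macrophage-made C1qb rose from 29.2 ± 3.07 to 136 ± 26.2 CPM, the anaphylatoxin receptor C5ar1 from 0.670 ± 0.0438 to 37.4 ± 7.93 CPM (log2 change 5.79 ± 0.22, adjusted p = 4.72e-11) and the surface inhibitor Cd55 from 3.18 ± 0.376 to 82.9 ± 7.64 CPM (log2 change 4.70 ± 0.23, adjusted p = 3.07e-10). Hepatocyte products of the terminal pathway and of its control, such as C6 (-0.11 ± 0.15), C9 (0.36 ± 0.20) and Serping1 (-0.01 ± 0.17), did not pass the test.

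Of 18 tested BCL2 family genes 9 rose and 5 fell (median 0.45), against 27.4% higher and 25.6% lower of all genes tested. Mcl1, a short-lived survival protein, was 74.7, 68.2 and 87.6 CPM in saline livers and 149, 109 and 146 CPM after GalN/LPS (log2 change 0.81 ± 0.15, adjusted p = 2.12e-04), and Bcl2l1 rose by 0.68 ± 0.18. Bcl2a1a, an NF-kB target with 2 counts in saline and 494 in GalN/LPS livers, stood at a ratio of 286 (95% interval for counting error 78.6 to 2360), though its near-identical copies Bcl2a1b and Bcl2a1d make its reads uncertain. Of the death-promoting members with only a BH3 domain, Bbc3 was 7.38, 6.23 and 13.1 CPM in saline livers and 1.75, 1.58 and 3.12 CPM after GalN/LPS (log2 change -2.03 ± 0.36, adjusted p = 1.78e-04), Bid, which links caspase-8 to the mitochondrion, was 13.6, 15.3 and 12.7 CPM in saline livers and 7.43, 5.17 and 6.25 CPM after GalN/LPS (log2 change -1.14 ± 0.20, adjusted p = 1.89e-04), and Bmf fell by 1.58 ± 0.34 on the log2 scale, while Bcl2l11 rose (4.50 ± 0.363 to 12.6 ± 0.514 CPM). The pore former Bax rose by 0.67 ± 0.15, and Bak1 had a log2 change of -0.01 ± 0.20 (adjusted p = 0.971). Bcl2l1 did not pass with library totals or without GalN/LPS 3 (adjusted p = 0.0667 and 0.0589).

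Targets of p53 rose in 8 of 20 cases and fell in 2 (median 0.35), against 27.4% higher and 25.6% lower of all genes tested. Cdkn1a, the inhibitor of cyclin-dependent kinases, was 0.871, 0.747 and 1.20 CPM in saline livers and 44.4, 23.1 and 48.2 CPM after GalN/LPS (log2 change 5.35 ± 0.34, adjusted p = 4.23e-09). Gdf15, a stress hormone, was 0.963, 2.09 and 2.02 CPM in saline livers and 8.71, 14.1 and 24.0 CPM after GalN/LPS (log2 change 3.21 ± 0.56, adjusted p = 1.69e-04). Mdm2, which degrades p53 (log2 change -0.35 ± 0.18, adjusted p = 0.107), and Ccng1 (log2 change 0.21 ± 0.15, adjusted p = 0.246) did not pass the test. Mdm2 passed without GalN/LPS 1 (adjusted p = 0.0492).

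Stress programs were divided within themselves. In the integrated stress response 12 of 26 members rose and 4 fell (median 0.87, but 12 higher and 7 lower with library totals). Ppp1r15a, which restores translation, was 8.16, 9.91 and 6.10 CPM in saline livers and 48.3, 47.0 and 61.3 CPM after GalN/LPS (log2 change 2.69 ± 0.38, adjusted p = 2.17e-05), and Nupr1 rose from 0.811 ± 0.143 to 9.96 ± 0.873 CPM. The central factor Atf4 was 89.4, 96.4 and 86.8 CPM in saline livers and 69.3, 68.0 and 87.1 CPM after GalN/LPS (log2 change -0.28 ± 0.17, adjusted p = 0.180), with overlapping groups, and Trib3 had a log2 change of -0.59 ± 0.55 (adjusted p = 0.385). Wars, a tRNA synthetase also induced by interferon, rose from 20.2 ± 2.03 to 113 ± 13.9 CPM, while Sars, another synthetase, fell (-0.75 ± 0.12). Atf4 passed without GalN/LPS 3 (adjusted p = 0.0349).

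Genes of the endoplasmic reticulum moved in both directions, against 27.4% higher and 25.6% lower of all genes tested (4 higher, 4 lower of 20, but 2 higher and 6 lower with library totals, 2 and 5 without saline 2 or GalN/LPS 3, 6 and 4 without GalN/LPS 1, and 2 and 4 without GalN/LPS 2). Xbp1, the transcription factor of the unfolded protein response, was 265, 182 and 208 CPM in saline livers and 64.0, 58.1 and 69.4 CPM after GalN/LPS (log2 change -1.77 ± 0.20, adjusted p = 2.54e-06), and Herpud1 (297 ± 28.6 to 114 ± 16.8 CPM) and Dnajb9 (76.1 ± 1.14 to 28.4 ± 1.64 CPM) fell too. Hspa5, the main chaperone, was 614 ± 97.8 CPM in saline livers and 462 ± 16.1 CPM after GalN/LPS (log2 change -0.41 ± 0.31, adjusted p = 0.275), and Canx, a lectin chaperone, rose by 0.66 ± 0.14. Cytosolic heat shock genes were 7 higher and 4 lower of 17, but 6 higher and 2 lower without saline 1, saline 2 or GalN/LPS 2. Hspa8 rose from 741 ± 71.9 to 1202 ± 78.5 CPM, while Hspb8, a partner of selective autophagy, was 139.8, 115 and 184 CPM in saline livers and 18.3, 26.9 and 23.5 CPM after GalN/LPS (log2 change -2.68 ± 0.25, adjusted p = 3.05e-07). Hspa1a rose from 0.570 ± 0.462 to 14.4 ± 9.80 CPM, though its reads are shared with its near-identical copy Hspa1b.

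Targets of the antioxidant factor NRF2 moved in both directions, near the 27.4% higher and 25.6% lower of all genes tested. Of 21, 6 were higher and 6 lower (median 0.04), but 4 higher and 7 lower with library totals, and 4 and 6 without saline 3 or GalN/LPS 3. Nfe2l2, which encodes NRF2, was 32.6, 48.0 and 36.1 CPM in saline livers and 92.8, 60.9 and 79.1 CPM after GalN/LPS (log2 change 1.0 ± 0.18, adjusted p = 2.68e-04), and Keap1, its inhibitor, was 38.2, 37.3 and 42.0 CPM in saline livers and 18, 18 and 16.2 CPM after GalN/LPS (log2 change -1.17 ± 0.12, adjusted p = 6.99e-07). The groups are separate in both genes, in opposite directions, as they are one way or the other in 59.7% of all genes tested. Of the classical targets Txnrd1 (-0.61 ± 0.12), Srxn1 (-0.79 ± 0.17) and Osgin1 (-2.20 ± 0.27) fell and Nqo1 was 3.43 ± 0.125 CPM in saline livers and 3.13 ± 1.56 CPM after GalN/LPS (log2 change -0.14 ± 0.31, adjusted p = 0.720). G6pdx, which supplies NADPH and is also known from phagocytes, rose from 2.57 ± 0.112 to 17.6 ± 5.05 CPM. Of the metallothionein and zinc genes 4 rose and 2 fell of 11 (3 higher and 3 lower with library totals, 2 and 3 without saline 2, 2 and 1 without saline 3, and 1 and 2 without GalN/LPS 3), with Mt1 at 627, 143 and 403 CPM in saline livers and 326, 247 and 297 CPM after GalN/LPS (log2 change -0.43 ± 0.37, adjusted p = 0.350). Mt1 passed without saline 2 (adjusted p = 0.0204). The zinc exporter Slc30a1 fell by 1.53 ± 0.22 on the log2 scale.

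Acute-phase proteins, which hepatocytes secrete in inflammation, mostly did not pass the test, though this depended on the processing. Of 19, 1 rose, 5 fell and 13 did not pass the test (median -0.35). Without the filter on low counts 2 rose and 10 fell, and in the fit of the 6 libraries alone 3 rose and 7 fell. Saa1, serum amyloid A, was 1232, 241 and 1976 CPM in saline livers and 93.7, 115 and 333 CPM after GalN/LPS (log2 change -2.67 ± 1.13, adjusted p = 0.0588). Saline 2 lay far below the other saline livers for Saa1, and the groups overlap. Lrg1, a secreted leucine-rich glycoprotein, was 1528, 780.1 and 1195 CPM in saline livers and 405, 437 and 561 CPM after GalN/LPS (log2 change -1.32 ± 0.30, adjusted p = 0.00170), and its groups do not overlap. Hp, haptoglobin, was 6271, 4256 and 7311 CPM in saline livers and 2387, 3151 and 3979 CPM after GalN/LPS (log2 change -0.91 ± 0.36, adjusted p = 0.0431), and Cp, ceruloplasmin, rose by 0.58 ± 0.19. Fgb, a fibrinogen chain, was 5849 ± 2059 CPM in saline livers and 4122 ± 949 CPM after GalN/LPS (log2 change -0.51 ± 0.30, adjusted p = 0.176). The counts depend on single libraries, being 1 higher and 2 lower without saline 1 or saline 3, 0 and 8 without saline 2, 3 and 1 without GalN/LPS 1, 0 and 3 without GalN/LPS 2, and 0 and 6 without GalN/LPS 3. Hp did not pass without saline 1, saline 3, GalN/LPS 1 or GalN/LPS 2 (adjusted p = 0.0880, 0.130, 0.142 and 0.0818), and Cp did not pass without saline 2, GalN/LPS 2 or GalN/LPS 3 (adjusted p = 0.0644, 0.0761 and 0.0729). Saa1 passed without saline 2 or GalN/LPS 3 (adjusted p = 0.0351 and 0.0445), and Fgb passed with library totals or without saline 2 (adjusted p = 0.0337 and 0.0371).

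Drug-metabolizing enzymes of hepatocytes moved in both directions. Of 34 cytochrome P450 genes 13 were higher and 5 lower (median 0.52), but 4 higher and 5 lower without GalN/LPS 2. Cyp2e1, which activates many toxins, was 5458, 4689 and 3251 CPM in saline livers and 4696, 7584 and 2836 CPM after GalN/LPS (log2 change 0.17 ± 0.30, adjusted p = 0.654), with overlapping groups. Cyp4b1, a fatty acid hydroxylase, rose from 3.82 ± 1.44 to 22.3 ± 7.06 CPM (log2 change 2.55 ± 0.35, adjusted p = 1.88e-05). Cyp2u1 fell from 33.4 ± 12.2 to 7.68 ± 1.33 CPM (log2 change -2.11 ± 0.24, adjusted p = 2.58e-06), and Por, the electron donor of all microsomal P450s, was 481, 322 and 529 CPM in saline livers and 203, 321 and 246 CPM after GalN/LPS (log2 change -0.79 ± 0.29, adjusted p = 0.0303). Cyp7a1, the rate-limiting enzyme of bile acid synthesis, which stands outside that list, was 174, 259 and 203 CPM in saline livers and 14.9, 20.9 and 9.12 CPM after GalN/LPS (log2 change -3.83 ± 0.38, adjusted p = 5.33e-07). The groups are far apart for Cyp7a1, whereas saline 2 and GalN/LPS 2 nearly meet for Por. Conjugation enzymes did not pass the test in 18 of 25 cases, such as Gstm1 (log2 change 0.18 ± 0.31, adjusted p = 0.644), and Nat2, an acetyltransferase, fell from 16.4 ± 1.48 to 2.22 ± 0.883 CPM (log2 change -2.87 ± 0.23, adjusted p = 4.27e-08). Hepatocyte transporters were 8 higher and 1 lower of 21 tested, but 5 higher and 4 lower with library totals, 5 and 1 without saline 1, 4 and 1 without saline 3, and 4 and 4 without GalN/LPS 2. The bile salt pump Abcb11 rose from 283 ± 48.1 to 546 ± 174 CPM (log2 change 0.95 ± 0.19, adjusted p = 6.80e-04), and the uptake carrier Slc10a1 was 443 ± 4.67 CPM in saline livers and 427 ± 75.3 CPM after GalN/LPS (log2 change -0.05 ± 0.17, adjusted p = 0.815). Of the conjugation enzymes 5 were higher and 2 lower, but 1 higher and 3 lower with library totals or without GalN/LPS 2, 3 and 2 without saline 1, and 2 and 2 without saline 2 or saline 3. Por did not pass without saline 1, saline 3 or GalN/LPS 1 (adjusted p = 0.0763, 0.101 and 0.112).

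Nuclear receptors, the ligand-bound transcription factors that govern these enzymes, fell in 16 of 29 tested cases and rose in 5 (median -0.54). Thrb, the thyroid hormone receptor of hepatocytes, was 18.8, 22.2 and 18.7 CPM in saline livers and 4.57, 4.48 and 3.18 CPM after GalN/LPS (log2 change -2.29 ± 0.17, adjusted p = 1.84e-08). Ppara, the sensor of fatty acids, was 50.7, 29.0 and 41.3 CPM in saline livers and 12.1, 14.6 and 10.04 CPM after GalN/LPS (log2 change -1.72 ± 0.22, adjusted p = 9.29e-06). Nr0b2, a repressor induced by bile acids, was 6.42, 19.1 and 26.3 CPM in saline livers and 2.18, 1.26 and 1.08 CPM after GalN/LPS (log2 change -3.51 ± 0.43, adjusted p = 4.54e-06). In these 3 every GalN/LPS liver lay below every saline liver, as in 29.5% of all genes tested. Nr5a2 (-1.52 ± 0.17), Esr1 (-2.12 ± 0.32) and Nr3c1, the glucocorticoid receptor (-0.75 ± 0.14), fell as well. Hnf4a, the factor that maintains hepatocyte identity, was 350.4, 354 and 414 CPM in saline livers and 361, 604 and 399.8 CPM after GalN/LPS (log2 change 0.29 ± 0.19, adjusted p = 0.222), with overlapping groups. The immediate early receptor Nr4a1 went the other way, at 0.826, 0.498 and 1.39 CPM in saline livers and 58.8, 34.9 and 65.6 CPM after GalN/LPS (log2 change 5.86 ± 0.35, adjusted p = 1.69e-09).

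Circadian genes fell in 10 of 17 cases and rose in 1 (Clock, 0.89 ± 0.16), with a median of -1.30 (but 2 higher and 10 lower without saline 2 or GalN/LPS 3). Dbp, a factor under direct control of the clock, was 75.8, 101 and 85.3 CPM in saline livers and 9.82, 9.27 and 8.55 CPM after GalN/LPS (log2 change -3.25 ± 0.20, adjusted p = 2.67e-09). Its relatives Tef (149.9 ± 3.12 to 40.3 ± 3.24 CPM) and Hlf (38.8 ± 8.48 to 8.56 ± 2.80 CPM) fell too, and Per3 fell by 2.98 ± 0.34 on the log2 scale. Arntl, the core activator, was 0.871, 0.648 and 1.59 CPM in saline livers and 1.01, 1.70 and 1.69 CPM after GalN/LPS (log2 change 0.50 ± 0.45, adjusted p = 0.376), and Per1 was 24.3 ± 0.651 CPM in saline livers and 25.9 ± 1.59 CPM after GalN/LPS (log2 change 0.09 ± 0.20, adjusted p = 0.738), both with overlapping groups. The labels give the same 6 h interval for both groups but no clock time. Usp2, a deubiquitinase under clock control, fell too (34.3 ± 6.68 to 1.48 ± 0.354 CPM, log2 change -4.54 ± 0.22, adjusted p = 3.12e-10).

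**Figure D5:**
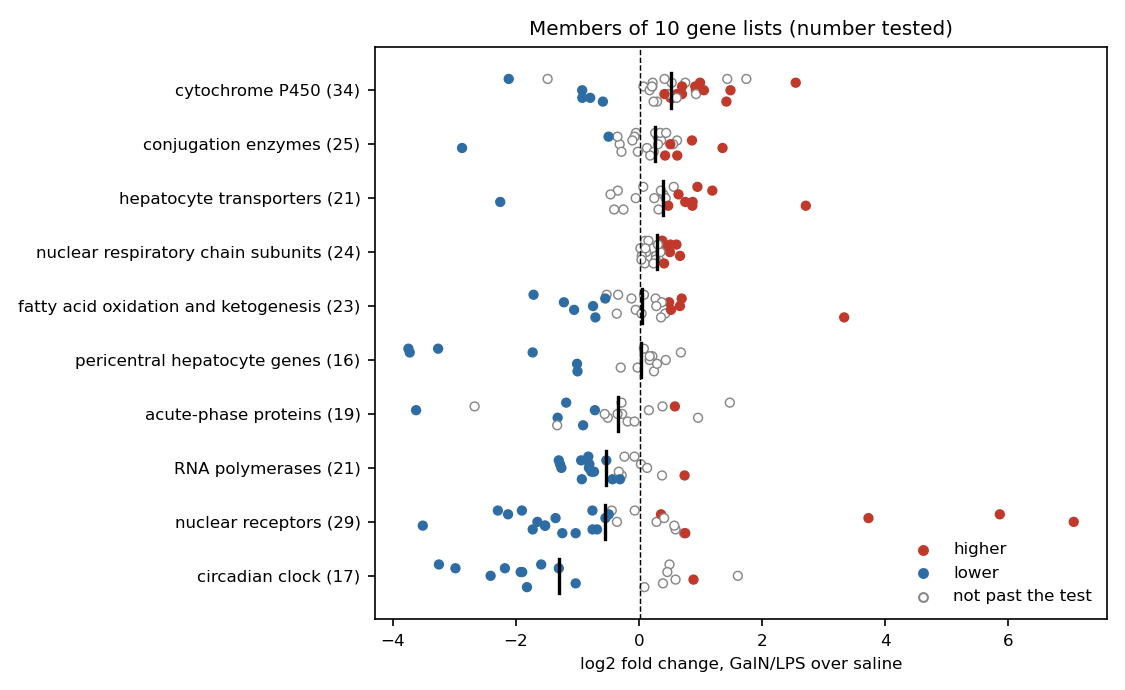
Each point is the log2 fold change (GalN/LPS over saline) of 1 tested member of 10 gene lists of hepatocyte and general cell functions, filled where the gene passed the test, with a black bar at the list's median and a dashed line at 0.02, the median of all genes tested. Enzymes and respiratory chain subunits lie around or above 0, and the clock, nuclear receptor and RNA polymerase lists have medians of -1.30, -0.54 and -0.53.

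Genes that mark zones of the liver lobule follow signals such as Wnt, which endothelium of the central vein provides. Of 16 pericentral genes 6 fell and none rose (median 0.03, but 1 higher and 6 lower without saline 2, and 1 and 5 without GalN/LPS 3). Those that fell include Wnt targets. Lgr5, a receptor for R-spondins, was 3.71, 3.39 and 3.17 CPM in saline livers and 0.425, 0.378 and 0.256 CPM after GalN/LPS (log2 change -3.26 ± 0.31, adjusted p = 3.32e-07), and Tbx3 was 19.4, 30.9 and 9.70 CPM in saline livers and 0.849, 1.58 and 2.10 CPM after GalN/LPS (log2 change -3.72 ± 0.47, adjusted p = 6.87e-06). Axin2 fell by 1.73 ± 0.51 on the log2 scale, and Glul, glutamine synthetase, was 727, 718 and 405 CPM in saline livers and 370.4, 327 and 225 CPM after GalN/LPS (log2 change -1.0 ± 0.22, adjusted p = 0.00132). Every GalN/LPS liver was below every saline liver for each of these 4, as in 29.5% of all genes tested. The pericentral enzymes Cyp1a2 (log2 change 0.22 ± 0.25, adjusted p = 0.494), Oat (log2 change 0.18 ± 0.21, adjusted p = 0.505) and Gulo (log2 change -0.02 ± 0.21, adjusted p = 0.941) did not pass the test. The Wnt ligand Wnt2 (1.68 ± 0.38) and the enhancer Rspo3 (2.17 ± 0.38), made by endothelium, rose, while the negative regulators Rnf43 (-3.29 ± 0.33) and Znrf3 (-2.17 ± 0.22), themselves Wnt targets, fell. Ctnnb1, which encodes beta-catenin, was 96.7 ± 27.5 CPM in saline livers and 112 ± 10.3 CPM after GalN/LPS (log2 change 0.21 ± 0.17, adjusted p = 0.336). Periportal genes were 6 higher and 4 lower of 16, but 4 higher and 5 lower with library totals, 3 and 4 without saline 1 or GalN/LPS 3, and 4 and 4 without saline 2 or GalN/LPS 2. Among them Pck1, the gatekeeper of gluconeogenesis, was 1902, 2384 and 2974 CPM in saline livers and 1098, 1437 and 1203 CPM after GalN/LPS (log2 change -0.96 ± 0.18, adjusted p = 2.96e-04), and Hal, which degrades histidine, fell by 1.22 ± 0.28 on the log2 scale.

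In the urea cycle, which disposes of ammonia, the activator gene and 2 enzyme genes fell. Nags, which makes the obligate activator of carbamoyl phosphate synthesis, was 59.0, 75.3 and 69.9 CPM in saline livers and 3.66, 1.83 and 2.61 CPM after GalN/LPS (log2 change -4.64 ± 0.22, adjusted p = 1.78e-10). Cps1, the enzyme it activates, was 2009, 1300.0 and 3194 CPM in saline livers and 2193, 4012 and 2586 CPM after GalN/LPS (log2 change 0.43 ± 0.28, adjusted p = 0.205), with overlapping groups. Of the later enzymes Asl (733 ± 202 to 407 ± 19.9 CPM) and Arg1 (1539.9 ± 322 to 1005 ± 79.9 CPM) fell, and Ass1 and Otc had a log2 change of -0.07 ± 0.26 (adjusted p = 0.842) and a log2 change of 0.15 ± 0.17 (adjusted p = 0.501), respectively. Arg1 did not pass without saline 3 or GalN/LPS 1 (adjusted p = 0.0964 and 0.0585), and Cps1 passed without saline 3 (adjusted p = 0.0197). Inhbe, a hepatokine of the activin family, was 68.7, 116 and 38.6 CPM in saline livers and 1.80, 2.52 and 2.51 CPM after GalN/LPS (log2 change -5.03 ± 0.34, adjusted p = 7.48e-09).

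Fatty acid oxidation genes moved in both directions, near the 27.4% higher and 25.6% lower of all genes tested (5 higher, 6 lower of 23, but 2 higher and 8 lower with library totals, 5 and 4 without saline 1, 2 and 5 without saline 2, 3 and 8 without saline 3, 6 and 4 without GalN/LPS 1, 2 and 6 without GalN/LPS 2, and 3 and 4 without GalN/LPS 3). Its gate Cpt1a, which admits fatty acids to the mitochondrion, was 443, 354 and 387 CPM in saline livers and 157, 204 and 149 CPM after GalN/LPS (log2 change -1.22 ± 0.19, adjusted p = 5.36e-05), and the coactivator Ppargc1a fell from 4.44 ± 0.624 to 1.35 ± 0.174 CPM. Pdk4, which shuts pyruvate out of the citric acid cycle, was 0.596, 1.49 and 1.25 CPM in saline livers and 12.6, 9.01 and 12 CPM after GalN/LPS (log2 change 3.33 ± 0.37, adjusted p = 1.61e-06).

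More glycolysis genes rose than fell. Hk2 was 0.734, 0.349 and 0.624 CPM in saline livers and 15.1, 7.82 and 11.7 CPM after GalN/LPS (log2 change 4.32 ± 0.34, adjusted p = 4.71e-08), and Pkm was 8.12, 6.38 and 10.1 CPM in saline livers and 128, 77.8 and 148 CPM after GalN/LPS (log2 change 3.85 ± 0.38, adjusted p = 4.84e-07). The liver forms Pklr (187 ± 43.8 to 109 ± 17.6 CPM) and Pfkfb1 (31.9 ± 3.36 to 11.1 ± 3.04 CPM) fell. Pfkfb3, the inducible activator of glycolysis, rose from 8.95 ± 2.43 to 87.1 ± 17.5 CPM and Slc16a3, which exports lactate, from 0.480 ± 0.212 to 20.7 ± 7.12 CPM. In all the list had 13 higher and 4 lower genes of 22 (median 0.79), but 12 higher and 2 lower without saline 1 or GalN/LPS 1, and 13 and 2 without saline 3 or GalN/LPS 2. It had 11 higher and 4 lower with library totals or without GalN/LPS 3, and 11 and 3 without saline 2. Leukocytes also carry Pkm and Slc16a3, and the part of their markers in this change was not tested. Pklr did not pass without saline 1, saline 2 or GalN/LPS 2 (adjusted p = 0.0872, 0.0615 and 0.0834).

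Lipoprotein genes did not pass the test in 11 of 19 cases. Apoa5 fell by 1.88 ± 0.24 on the log2 scale and Angptl8 fell by 2.77 ± 0.44. Apob (log2 change 0.42 ± 0.20, adjusted p = 0.0893) and Mttp (log2 change 0.28 ± 0.14, adjusted p = 0.115), which build the particle, did not pass the test. Apob passed without GalN/LPS 1 (adjusted p = 0.0296). Of 11 tested bile acid genes 1 rose and 3 fell (0 higher and 3 lower without saline 2, 2 and 3 without GalN/LPS 1, and 0 and 4 without GalN/LPS 2), with Baat, which conjugates bile acids, at 210.3 ± 14.9 CPM in saline livers and 82.1 ± 12 CPM after GalN/LPS (log2 change -1.36 ± 0.15, adjusted p = 1.35e-06).

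Salvage of NAD fell at several enzymes. Nmrk1, a nicotinamide riboside kinase, was 40.3, 47.6 and 30.8 CPM in saline livers and 7.33, 5.23 and 7.78 CPM after GalN/LPS (log2 change -2.54 ± 0.19, adjusted p = 2.00e-08), and Nmnat1 (-1.30 ± 0.24), Nmnat3 (-2.02 ± 0.27) and Naprt (-0.87 ± 0.13) fell. Nampt, the rate-limiting salvage enzyme, rose from 64.2 ± 2.39 to 96.7 ± 20.2 CPM. The list held 2 higher and 7 lower of 17 tested genes, but 0 higher and 7 lower with library totals, and 1 and 7 without saline 1, saline 2, GalN/LPS 2 or GalN/LPS 3. Ido1, the interferon-induced tryptophan enzyme, had 0 counts in saline and 2 in GalN/LPS livers and was not tested. Nampt did not pass with library totals (adjusted p = 0.0638).

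Iron genes were 6 higher and 3 lower of 18 (9 and 3 without GalN/LPS 1), against 27.4% higher and 25.6% lower of all genes tested. Hfe2, hemojuvelin, which licenses hepcidin, was 45.3, 58.3 and 70.8 CPM in saline livers and 12.6, 9.64 and 6.91 CPM after GalN/LPS (log2 change -2.58 ± 0.25, adjusted p = 3.50e-07), while its upstream signals Bmp2 (3.98 ± 0.452 to 35.3 ± 4.85 CPM) and Bmp6 (1.59 ± 0.352 to 12 ± 1.71 CPM), made by endothelium, rose. The exporter Slc40a1 fell by 1.42 ± 0.16 on the log2 scale, and ferritin heavy chain, Fth1, rose from 1132 ± 55.6 to 2397 ± 105 CPM. In the growth hormone axis Igf1 was 539 ± 78.2 CPM in saline livers and 549 ± 132 CPM after GalN/LPS (log2 change 0.03 ± 0.21, adjusted p = 0.931), and Igfals, which stabilizes it in blood, fell from 105 ± 7.96 to 38.6 ± 12.8 CPM (log2 change -1.44 ± 0.19, adjusted p = 9.07e-06). The polyamine enzymes Amd1 (-1.30 ± 0.20) and Srm (-1.6 ± 0.27) fell.

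Several signals for regeneration rose, and 3 growth factor receptors of hepatocytes fell. Hgf, the hepatocyte growth factor, was 1.38, 0.249 and 0.865 CPM in saline livers and 17.3, 5.17 and 7.94 CPM after GalN/LPS (log2 change 3.59 ± 0.59, adjusted p = 1.03e-04), and its receptor Met was 71.5, 65.2 and 65.5 CPM in saline livers and 16.3, 17.2 and 14.1 CPM after GalN/LPS (log2 change -2.08 ± 0.13, adjusted p = 3.45e-09). Hbegf, a ligand of the epidermal growth factor receptor, was 0.275, 0.199 and 0.624 CPM in saline livers and 7.86, 12.3 and 18.8 CPM after GalN/LPS (log2 change 5.12 ± 0.91, adjusted p = 1.86e-04), and that receptor, Egfr, was 611, 526 and 533 CPM in saline livers and 256, 403 and 271 CPM after GalN/LPS (log2 change -0.84 ± 0.19, adjusted p = 0.00150). The groups are separate in all 4, as they are, one way or the other, in 59.7% of all genes tested. Erbb3 fell by 2.19 ± 0.19 on the log2 scale. Inhbb, an activin chain, rose from 0.595 ± 0.268 to 64.8 ± 24.1 CPM, and Tgfb1 rose from 5.57 ± 0.571 to 36.0 ± 9.04 CPM. Of 18 tested members 10 rose and 5 fell.

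Cell cycle genes showed no common direction (9 higher, 3 lower, 13 not past the test of 25, but 6 higher and 4 lower with library totals, and 7 and 5 without GalN/LPS 3). Of all genes tested 27.4% were higher and 25.6% lower. Myc was 31.2, 3.14 and 18.6 CPM in saline livers and 26.6, 29.0 and 39.3 CPM after GalN/LPS (log2 change 0.84 ± 0.62, adjusted p = 0.271), and Ccnd1, the cyclin of hepatocyte division, was 26.6, 16.4 and 18.8 CPM in saline livers and 13.7, 8.38 and 15.9 CPM after GalN/LPS (log2 change -0.70 ± 0.32, adjusted p = 0.0802). Ccne1 fell from 4.09 ± 0.499 to 0.798 ± 0.326 CPM. The growth arrest genes Gadd45b (0.865 ± 0.279 to 94.4 ± 28.7 CPM) and Mxd1, an antagonist of Myc (5.23 ± 0.292 to 110.4 ± 20.6 CPM), rose by 6.76 ± 0.70 and 4.40 ± 0.20. None of the 6 replication genes Mcm2 to Mcm7 passed the test, and Mcm7 had a log2 change of -0.48 ± 0.20 (adjusted p = 0.0580). Ccnd1 passed without GalN/LPS 3 (adjusted p = 0.0347), and Mcm7 passed with library totals, without saline 2 or GalN/LPS 3 (adjusted p = 0.0262, 0.0266 and 0.0406).

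Genes for the RNA polymerases themselves fell in 13 of 21 cases, against 25.6% of all genes, and rose in 1 (median -0.53, but 2 higher and 12 lower without saline 2). Polr1b, a core subunit of the enzyme that makes ribosomal RNA, was 18.3, 13.5 and 15.2 CPM in saline livers and 8.17, 4.48 and 6.30 CPM after GalN/LPS (log2 change -1.30 ± 0.21, adjusted p = 6.59e-05). Polr3a, the largest subunit of RNA polymerase III, was 13.7, 11.5 and 11.9 CPM in saline livers and 6.0, 4.22 and 5.22 CPM after GalN/LPS (log2 change -1.26 ± 0.17, adjusted p = 1.68e-05). Polr2b fell from 34.1 ± 5.29 to 18 ± 0.833 CPM, but Polr2a, the largest subunit of RNA polymerase II, was 26.6, 20.2 and 26.9 CPM in saline livers and 31.8, 45.5 and 45.9 CPM after GalN/LPS (log2 change 0.74 ± 0.16, adjusted p = 0.00106); it is the member that rose. The groups are separate in these 4 genes, as they are, one way or the other, in 59.7% of all genes tested. Ribosome assembly genes fell in 7 of 21 cases, near the 25.6% of all genes, such as Fbl, a methyltransferase of ribosomal RNA (log2 change -0.72 ± 0.14, adjusted p = 4.04e-04), and Ddx21 rose (0.51 ± 0.14). That list had 0 higher and 9 lower with library totals, 2 and 5 without saline 2, and 0 and 10 without GalN/LPS 3. Ddx21 did not pass with library totals or without GalN/LPS 3 (adjusted p = 0.126 and 0.0823).

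Of 20 proteasome genes 13 did not pass the test and 5 rose, near the 27.4% of all genes. The 5 were the 3 immunoproteasome subunits above with the activator subunits Psme1 (0.49 ± 0.14) and Psme2 (0.42 ± 0.13). The proteasome list had 4 higher and 4 lower with library totals, 5 and 3 without GalN/LPS 2, and 3 and 2 without GalN/LPS 3. Psme1 did not pass without GalN/LPS 3 (adjusted p = 0.0512), and Psme2 did not pass with library totals or without GalN/LPS 3 (adjusted p = 0.161 and 0.120). Of 24 nuclear subunits of the respiratory chain 8 rose, near the 27.4% of all genes, and none fell (median 0.29), such as Sdha (log2 change 0.67 ± 0.17, adjusted p = 0.00432). The list had 4 higher and 0 lower with library totals, without saline 1, GalN/LPS 2 or GalN/LPS 3. Of 13 mRNAs of the mitochondrial genome 11 did not pass the test, while mt-Co1 rose (15061 ± 4794 to 29631 ± 2878 CPM) and mt-Co3 fell (170.4 ± 136 to 55.5 ± 16.9 CPM), but 1 higher and 0 lower without saline 1, and 3 and 1 without saline 2. mt-Co3 did not pass without saline 1 (adjusted p = 0.0707). In autophagy the cargo receptor Sqstm1 was 302, 299 and 341 CPM in saline livers and 124, 102 and 122 CPM after GalN/LPS (log2 change -1.43 ± 0.13, adjusted p = 2.67e-07) and the kinase Ulk1 fell by 0.84 ± 0.17 on the log2 scale, whereas the lysosomal protease Ctsb (429 ± 42.8 to 865 ± 28.0 CPM) and membrane protein Lamp1 (484 ± 21.3 to 767 ± 127 CPM) rose.

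Shares of calls were also counted in classes that the comparison did not use. Genes whose symbol is Zfp and a number, most of which encode zinc-finger proteins, were lower in 114 of 293 cases (38.9%) and higher in 26 (8.87%), with a median of -0.53. Processed pseudogenes, whose reads may belong to their parent genes, were lower in 3.02% and higher in 18.1% of 497 cases. Genes on chromosome X were lower in 13.8% and higher in 32.9% of 426 cases. The share of low levels in each of these classes was not matched, the classes were chosen after their values were seen, and their shares describe these libraries and were not tested.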

How the data were processed

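RNA of 13 mouse liver libraries was sequenced, of which 3 saline and 3 GalN/LPS libraries were compared, grouped by their titles. The series' design text names acetaminophen injury, and the labels of these libraries, which name D-galactosamine with lipopolysaccharide, were followed. Table columns named ALF were taken as GalN/LPS, since the other injured group has its own column name. The authors deposited raw read counts per Ensembl gene and a separate table of FPKM values. Per the submitters' processing notes HISAT2 and the builds GRCm38 and mm10 were used. The counter, its strand setting and the annotation release were not given in the sources used here. In the deposited FPKM table the denominators were 0.934 to 1.16 times the total counts of these 6 libraries.

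From the counts, edgeR 4.0.16 (R 4.3.3) fitted all 13 libraries in 1 model with group as the only term, TMM scaling and the filterByExpr filter by group. GalN/LPS and saline were compared by the two-sided quasi-likelihood F test, with p-values adjusted by the Benjamini-Hochberg method over all genes tested, threshold 0.05. The script was tested on simulated counts. Intervals of ratios are exact, at 95%, and cover counting error only, as does the floor of 3 counts. Alternatives were other scalings and filters, DESeq2 1.42.0, limma 3.58.1 on log2 FPKM, a fit of the 6 libraries alone, the replicate number as a block and each library left out.

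The comparison, gene lists and named genes were chosen with earlier results of these data known. The rule for names took from each list the genes marked as key and the 4 with the smallest adjusted p, and the 12 largest changes each way among called genes whose groups do not overlap, whose mean reached 5 CPM in 1 group or the other, predicted genes left out, and over all genes the 10 largest gains and losses in CPM. It also took a few genes fixed by name, among them Cxcl10. Of 258 genes named, 58 stand outside it and were chosen after their values were seen: Adam10, Adam17, Adora2b, Arg1, Ass1, Bak1, Bmf, C6, C9, Cdh5, Clec4f, Clock, Cnot7, Ctnnb1, Cybb, Ddx21, Dusp16, F10, Fadd, Fth1, Gulo, Hspa8, Ikbkb, Ikbkg, Itgb2, Lamp1, Lrat, Mcm2, Mcm7, Nfkbia, Nmnat1, Otc, Otulin, Pecam1, Pfkfb1, Pklr, Polr2a, Por, Proc, Prtn3, Psmb5, Psmb6, Sars, Serpinf2, Serping1, Sharpin, Slc16a3, Srm, Ticam1, Tirap, Tlr5, Tlr9, Tradd, Uck1, Ulk1, Vsig4, Xrn1 and Zbp1. Promoter sequences came from RefSeq. Results for some list members are not reported here.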

Additional observations from a re-analysis of the deposited data

How the results depend on the processing

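The counts of 3906 higher and 3650 lower genes stayed within 1.5 times under every alternative run, as did the 2674 higher and 1853 lower genes that changed at least 2-fold, except with limma on log2(FPKM + 1), which gave 1235 and 741 of the latter; that pseudocount shrinks the folds of low genes by construction. Leaving out 1 library in turn gave 3156 to 3805 higher and 3283 to 3826 lower genes, and 2387 to 2803 higher and 1830 to 2153 lower genes of at least 2-fold. DESeq2 called 3976 higher and 3724 lower. Of the 258 genes named, 32 had a call that 1 or more alternatives changed, and no call changed direction. Low counts limit the folds of genes near 0 in saline, such as Osm and Sele.

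The labels number the replicates, and the numbers were not taken as pairs. Deviations from the group means of same-numbered saline and GalN/LPS libraries correlated at -0.01, 0.07 and 0.06 over genes, and those of differently numbered ones at -0.09 to 0.05. With 3 libraries a group, this check cannot settle whether the numbers pair libraries. With the replicate number as a block 3714 genes were higher and 3503 lower, 2639 and 1827 of them at least 2-fold. Under the block Hp and Por did not pass (adjusted p = 0.0749 and 0.0596 in edgeR) and Ccnd1 and Mcm7 did (0.0488 and 0.0451), lower acute-phase genes numbered 3, and higher conjugation enzymes and respiratory chain subunits 2 and 5.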
